A study of Mus musculus with 16 samples.

Results

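The dependence of the acetate response on genotype was examined in mouse Th17 cells, the class of CD4 helper T cells that makes IL-17, over all 16 of the 16 RNA sequencing libraries of the study. For each gene the interaction was computed, which is the change with acetate in PDH knockout cells minus the change with acetate in wild-type cells. Cells of the wild-type groups (WT) came from mice labelled PDHfl/fl without Cre, and cells of the knockout groups (KO) from PDHfl/fl mice with CD4-Cre, a Cre transgene active in the T cell lineage. Naive CD4 T cells from spleen and lymph nodes were cultured for 3 days in all groups with plate-bound anti-CD3 (5 µg/mL), anti-CD28 (1 µg/mL), IL-6 (30 ng/mL), TGFβ (2 ng/mL) and anti-IFNγ (5 µg/mL). Sodium acetate at 10 mM was present during differentiation in the WT acetate and KO acetate groups and absent from the WT untreated and KO untreated groups, with 4 libraries in each group. No group received another sodium salt or carried CD4-Cre without the floxed gene, so acetate and sodium, and the knockout and Cre, cannot be told apart. The sample titles write PHD where the protocols write PDH, no label says which PDH gene was deleted, and no ages of the mice are given. Whether the libraries of a group stem from separate mice or cultures is not stated in the labels, so the p-values here refer to the spread among these libraries, which may be technical.

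The pyruvate dehydrogenase (PDH) complex turns pyruvate from glycolysis into acetyl-CoA inside mitochondria. Acetyl-CoA feeds the TCA cycle, is exported as citrate for lipid synthesis, and donates acetyl groups to histones. Cells can also make acetyl-CoA directly from acetate, through acetyl-CoA synthetases in mitochondria, cytosol and nucleus, so acetate offers a supply that does not pass through PDH. Th17 cells grow on glycolysis, and HIF1, the oxygen-regulated transcription factor that drives glycolytic genes, takes part in their differentiation.

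Library totals lay between 24.57 and 33.72 M estimated counts. The CD4 T cell markers Cd3e, Cd3d, Cd4 and Trac summed to 797 to 1065 CPM over all libraries, where CPM stands for counts scaled to 1 M per library. Of the markers of other cells, all 5 B cell genes summed to 1.14 to 5.64 CPM, 2 of 5 myeloid genes to 1.21 to 3.44 CPM and 2 of 5 dendritic cell genes to 1.10 to 5.80 CPM. All 3 gamma delta T cell genes summed to 2.20 to 7.31 CPM, 1 of 3 mast cell and basophil genes to 0.112 to 1.52 CPM, and 2 of 4 stromal and endothelial genes to 12.7 to 26.9 CPM, nearly all of it Pecam1. Of 6 CD8 T and NK cell genes 3 summed to 7.42 to 26.8 CPM, given by group below with the cytotoxic genes. The other listed markers, including all 3 of red cells, were not among the genes tested. One gene without a name in the reference held more than 3% of the counts in 4 libraries, WT untreated 1, KO untreated 1 and 2, and KO acetate 2, which are called the high-share libraries. Values in CPM are given in the order of libraries 1 to 4, adjusted p-values are from the edgeR quasi-likelihood test, effects are log2 fold changes, and a gene is called when its adjusted p is under 0.05.

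The acetate response differed between the genotypes for 1785 of the 14985 genes tested (11.9%). The interaction was higher for 955 genes (6.37%), 155 of them by more than 2-fold, and lower for 830 (5.54%), 171 of them by more than 2-fold. In KO cells acetate itself changed 6550 genes (43.7%), and in WT cells 2315 (15.4%). With acetate 3314 genes were higher (22.1%) and 3236 lower (21.6%) in KO cells, and 1183 higher (7.89%) and 1132 lower (7.55%) in WT cells. The median size of the acetate effect over all genes tested was 0.29 in KO and 0.16 in WT cells, without regard to sign. Without library WT acetate 1, 734 genes were lower with acetate in WT cells in place of 1132. The WT acetate libraries were divided on the second principal component of log2 CPM. Libraries 1 and 2 stood at −3.18 and −0.793, and libraries 3 and 4 at 21.3 and 14.2. The other groups spanned 12.6 to 27.4 (WT untreated), −20.5 to 7.45 (KO untreated) and −31.2 to −8.02 (KO acetate). Whether this division bears on the number of calls in WT cells was not tested. The interaction calls numbered 1010 without the 4 high-share libraries, of which 880 were among the 1785. That fit keeps only libraries 3 and 4 of KO untreated. For calls lost in it, here and below, the smaller number of libraries and the absence of those 4 cannot be told apart. With library totals as the only scaling, 68.0% of the interaction calls were higher in place of 53.5%, and 67.0% and 68.2% of the acetate calls in KO and WT cells in place of 50.6% and 51.1%.

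**Figure D1:**
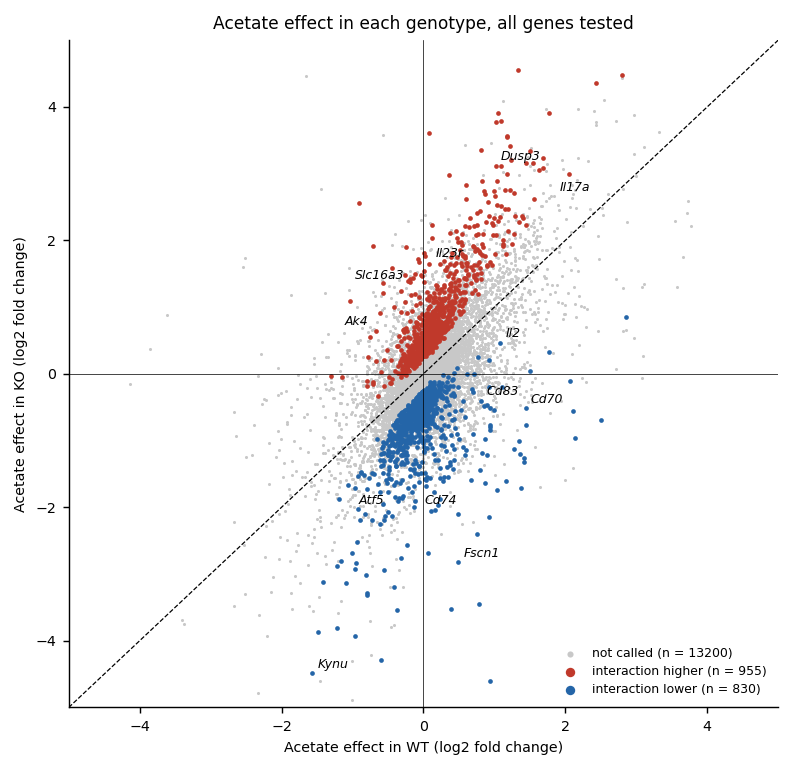
Acetate effect in WT (horizontal axis) and KO cells (vertical axis), as log2 fold changes, for the genes tested. Each point is a gene, the dashed line marks equal effects, and genes called in the interaction are red (955 higher) or blue (830 lower). A further 36 genes, 2 of them called, lie beyond the axis limit of 5 and are not drawn. Most coloured points lie farther from 0 on the vertical than on the horizontal axis.

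Most of the 1785 genes had acetate effects of the same sign in both genotypes and larger in KO cells, with 1118 genes (62.6%) of this form, against 50.7% of all genes tested. Effects opposite in sign and larger in KO were found for 539 genes (30.2%, against 19.1% of all tested), and effects opposite in sign and larger in WT for 102 (5.71%, against 10.5%). The remaining 26 genes (1.46%, against 19.7%) had effects of the same sign and larger in WT. Across the 1785 genes the 2 acetate effects, which share no library, had a Pearson r of 0.53 and a Spearman rho of 0.55, and across all 14985 genes 0.51 and 0.55. The interaction is the difference of these 2 effects, so picking genes by it shapes the shares and the correlation among the 1785. Those values are a description. Genes are not independent replicates, and within a genotype all of them share the same libraries. Among the 955 genes with a higher interaction, acetate raised 661 in KO cells with no call in WT cells, raised 217 in both genotypes and raised 17 in KO while lowering them in WT. Another 45 were lower with acetate in WT only by call, and 14 had neither acetate effect called. Among the 830 genes with a lower interaction, acetate lowered 603 in KO cells with no call in WT cells, 165 in both, and 13 in KO while raising them in WT, while 33 were higher in WT with no call in KO and 14 had neither effect called. The remaining 3 genes of the higher and lower sets (1 and 2) were called in the same direction in both genotypes with the larger effect in WT.

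**Figure D2:**
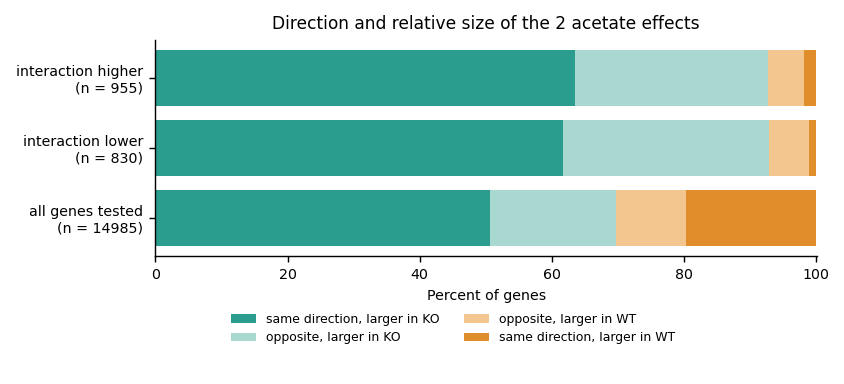
Percent of genes (horizontal axis) by whether the acetate effects in KO and WT cells had the same sign and which was larger in size, for genes with a higher interaction, a lower interaction and all genes tested. The same direction with a larger effect in KO covers 63.5% of the higher and 61.7% of the lower genes, and 50.7% of all genes tested.

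The untreated KO group stood at one end for nearly all of these genes. It had the lowest mean of the 4 groups in 923 of the 955 genes with a higher interaction (96.6%, against 34.1% of all genes tested), and the highest mean in 805 of the 830 with a lower interaction (97.0%, against 36.9%). The highest mean of the 955 genes was divided between KO acetate (360 genes), WT acetate (323) and WT untreated (270), with 2 genes highest in KO untreated. For the 955 genes the median acetate effect was 0.58 in KO and 0.08 in WT cells, and the median difference of KO from WT cells was −0.51 untreated and −0.01 with acetate. For the 830 genes the same medians were −0.66, −0.06, 0.55 and −0.02. The group means and these 4 contrasts are drawn from the same 16 libraries as the interaction that picked the genes. The KO untreated mean is part of the interaction, so the shares and the medians stand side by side as a description. In bulk RNA, a change in the number of cells of one kind and a change in RNA per cell cannot be told apart.

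**Figure D3:**
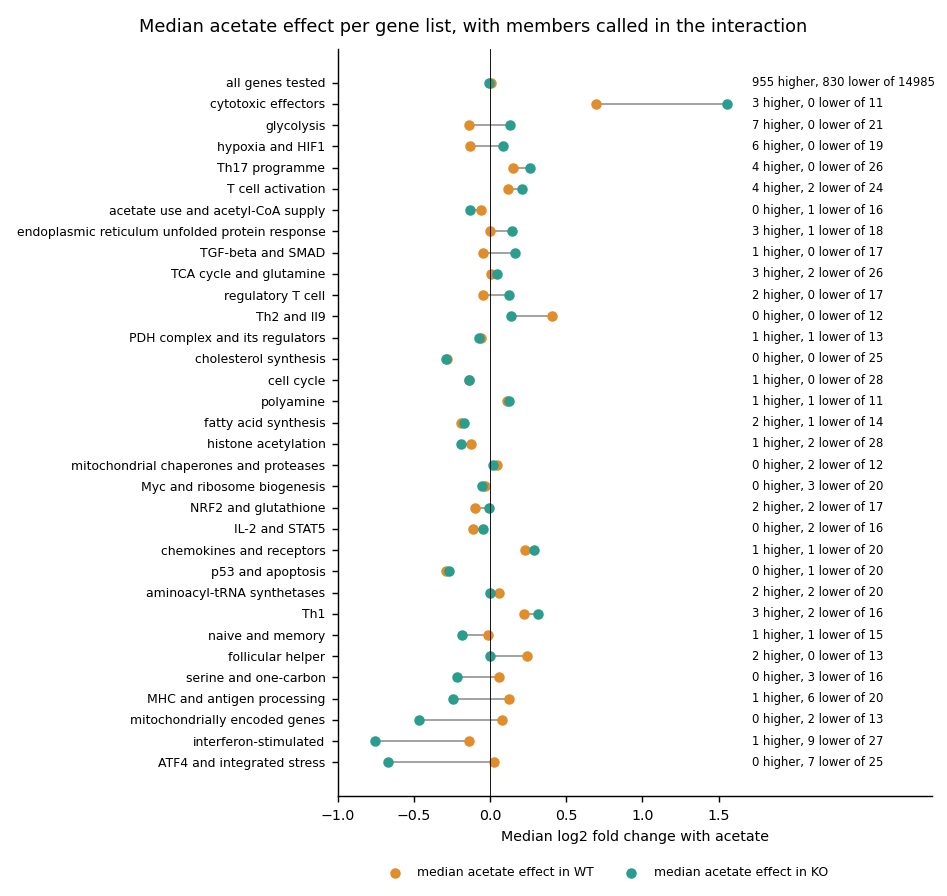
Median acetate effect (log2 fold change, horizontal axis) of the tested members of each gene list (rows) in WT (orange) and KO cells (green), with the number of members called in the interaction at the right and all genes tested at the top. The glycolysis and hypoxia lists lie below 0 in WT and above 0 in KO, and the ATF4 list lies near 0 in WT and at −0.67 in KO.

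Among genes of glucose use and of the hypoxia response, those called had higher interactions. In the glycolysis list 7 of 21 genes tested were called higher and none lower (33.3%, against 6.37% of all genes tested called higher). Its median interaction was 0.31 against −0.004 for all genes tested, with median acetate effects of 0.13 in KO and −0.14 in WT cells. In the hypoxia and HIF1 list 6 of 19 were called higher and none lower (31.6%, median interaction 0.30). Fits that each left out 1 library gave 4 to 6. The number was 4 without any of WT untreated 2 or 4, WT acetate 4, KO untreated 3 or 4, or KO acetate 2. The lactate exporter gene Slc16a3 stood at 109, 132, 115 and 119 CPM in WT untreated and 130.0, 126, 77.0 and 104 CPM in WT acetate libraries. It was at 33.8, 26.7, 29.7 and 30.4 CPM in KO untreated and 75.6, 91.1, 81.9 and 91.3 CPM in KO acetate libraries. All 4 KO untreated libraries lay below every other library, and the KO acetate libraries overlapped the WT acetate libraries. The acetate effect on Slc16a3 was 1.495 in KO and −0.12 in WT cells, an interaction of 1.61 (SE 0.184, adjusted p = 5.89e-05).

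The hexokinase genes Hk1 and Hk2, whose products trap glucose in the cell as its phosphate, also had higher interactions. Hk2 was at 95.01, 77.6, 93.4 and 103 CPM in KO untreated and 163, 135, 162 and 129 CPM in KO acetate libraries, against 129.8 to 148 CPM in WT untreated and 121 to 139 CPM in WT acetate libraries. Its interaction was 0.74 (SE 0.124, adjusted p = 0.00101), and that of Hk1 0.65 (SE 0.0965, adjusted p = 3.38e-04). Pfkfb3, which makes the activator of phosphofructokinase, was at 34.9, 36.5, 34.3 and 38.6 CPM in KO untreated and 57.1, 56.8, 62.9 and 56.8 CPM in KO acetate libraries, with no overlap, and at 52.6 to 56.9 and 53.2 to 63.1 CPM in the WT groups, which did overlap. Its interaction was 0.60 (SE 0.0920, adjusted p = 4.27e-04). Ldha, the lactate dehydrogenase subunit gene and a member of the list that was not called, had an interaction of 0.22 (95% confidence interval 0.01 to 0.43, adjusted p = 0.178). It is named here after its values were seen. Without the 4 high-share libraries 5 glycolysis genes were called higher. Fits that each left out 1 library gave 5 to 9. The number was 5 without any of WT untreated 1, 2 or 3, WT acetate 1, 3 or 4, KO untreated 1, 2 or 3, or KO acetate 2 or 3.

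Hif1a itself, also a member of the Th17 list, was at 340.3, 358, 305 and 291 CPM in KO untreated and 805, 794, 684 and 619.8 CPM in KO acetate libraries, which did not overlap. In WT cells it was at 549.5, 717, 627 and 748 CPM untreated and 881, 815, 504 and 628 CPM with acetate, with WT acetate 4 inside the untreated range, WT acetate 3 below it and WT acetate 1 and 2 above it. The acetate effect was 1.16 in KO and 0.10 in WT cells (interaction 1.07, SE 0.213, adjusted p = 0.00473). Ak4, a mitochondrial adenylate kinase induced in hypoxia, had opposite effects. It fell from 34.3, 36.1, 34.2 and 32.3 CPM to 21.3, 21.8, 20.02 and 23.2 CPM with acetate in WT cells, and rose from 14.6, 11.5, 12.5 and 12.9 CPM to 16.4, 19.3, 20.6 and 24.1 CPM in KO cells, with no overlap in either genotype (interaction 1.31, SE 0.138, adjusted p = 1.50e-05). Bnip3, a mitophagy receptor gene, fell with acetate in WT cells by 0.78, with 29.5 to 41.7 CPM untreated and 13.1 to 26.6 CPM with acetate, and its KO groups overlapped at 11.4 to 16.6 CPM untreated and 15.3 to 16.5 CPM with acetate (interaction 1.04, SE 0.250, adjusted p = 0.0143). P4ha1, a subunit gene of the prolyl hydroxylase of collagen, had an interaction of 0.32 (SE 0.0683, adjusted p = 0.00503), with acetate effects of 0.18 in KO and −0.15 in WT cells, both called.

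**Figure D4:**
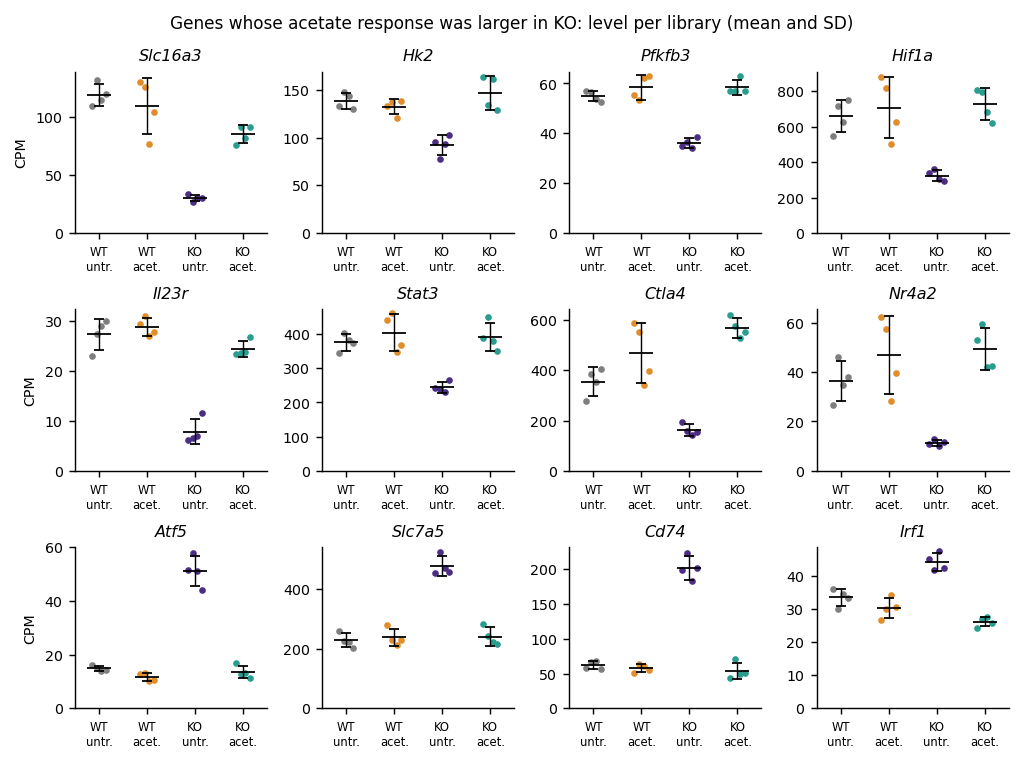
Level (CPM, vertical axis) of 12 genes in each library, by group (horizontal axis), with points for libraries and bars for the mean and SD of 4 libraries. In each panel the 4 KO untreated libraries stand below or above all libraries of the other groups.

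The promoters of members of these lists are shown because ACGTG, a form of the HIF binding core, can be read in them beside the values above. The sequences are from RefSeq (GRCm38.p6), 100 bases each, printed 5′ to 3′ on the gene's own strand, with matches to ACGTG or to its reverse complement in capitals. No source used here names the build behind the deposited counts.
Slc16a3, chr11:120948967-120949066, plus strand: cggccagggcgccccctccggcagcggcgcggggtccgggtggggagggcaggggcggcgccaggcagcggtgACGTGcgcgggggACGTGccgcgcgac
Hk2, chr6:82774455-82774554, minus strand: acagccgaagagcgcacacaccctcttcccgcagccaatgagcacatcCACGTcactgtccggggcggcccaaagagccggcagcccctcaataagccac
Bnip3, chr7:138909562-138909661, minus strand: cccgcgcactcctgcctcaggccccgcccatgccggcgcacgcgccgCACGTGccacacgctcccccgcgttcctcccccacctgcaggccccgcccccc
P4ha1, chr10:59323196-59323295, plus strand: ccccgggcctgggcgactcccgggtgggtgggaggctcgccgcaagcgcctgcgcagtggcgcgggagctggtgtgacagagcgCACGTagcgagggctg
Within the 250 bases before the start, ACGTG was found on either strand in 18.5% of all 27025 promoters in the reference and in 2595 of the 10389 promoters of tested genes that matched by symbol. Among members of the glycolysis and hypoxia lists it was present in 9 of 12 promoters of genes with a higher interaction and in 13 of 23 promoters of members not called. Over all genes called, it was present in 26.5% of the promoters with a higher and 26.1% of those with a lower interaction, near the share of all promoters of tested genes. GCGTG, another form of the HIF core, went the other way in the same lists. It was present in 6 of 12 promoters of genes with a higher interaction and 17 of 23 of members not called, against 49.1% of promoters of tested genes. In all, 12 motifs were searched on both strands. ACGTG stood for HIF, and GCGTG for the aryl hydrocarbon receptor and the other form of the HIF core. TGACGT and its full form TGACGTCA stood for the CREB family, and TGATGNAA with its form TGATGCAA for ATF4. TGACNNNGC stood for NRF2, TTCNNNGAA for STAT factors, TGANTCA for AP-1, CCACCC for KLF factors and TCACNCCAC for SREBP. For interferon-regulated factors a pair of GAAA words with any 2 bases between them was searched. TGACGT lies within TGACGTCA, TGATGCAA is one form of TGATGNAA, and CACGTG matches ACGTG on both strands. The 2 motifs shown here and below were chosen after the counts were seen, and a match of letters is a description, not a binding site.

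Genes of the ATF4 response, a programme switched on by amino acid shortage and by mitochondrial stress, had lower interactions where called. Of 25 genes tested 7 were called lower and none higher (28%, against 5.54% of all genes tested called lower). Of the 25 interactions 24 were below 0, and the median was −0.76, with median acetate effects of −0.67 in KO and 0.03 in WT cells. Atf5, a transcription factor of this response, was at 51.3, 57.6, 50.9 and 43.9 CPM in KO untreated and 16.8, 12.9, 13.3 and 11.4 CPM in KO acetate libraries. In WT cells it was at 16.2, 14.9, 14.1 and 14.4 CPM untreated and 12.8, 13.04, 10.1 and 10.4 CPM with acetate. The KO untreated libraries stood apart from all others, and acetate lowered the gene in both genotypes, by 1.90 (log2) in KO and 0.36 in WT cells (interaction −1.55, SE 0.161, adjusted p = 1.46e-05). Atf4, named after its values were seen, was at 533 to 614 CPM in KO untreated and 319 to 422 CPM in KO acetate libraries, and at 282 to 299.5 and 233 to 356 CPM in WT libraries without and with acetate (interaction −0.67, SE 0.145, adjusted p = 0.00627). Without the 4 high-share libraries the value for Atf4 was −0.59, with an adjusted p of 0.0788, and 5 genes of the list were called.

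Slc7a5, the large neutral amino acid carrier, was at 454, 526, 473 and 458 CPM in KO untreated and 283, 244, 223 and 215 CPM in KO acetate libraries, with WT libraries at 204 to 261 CPM untreated and 214 to 281 CPM with acetate. Its interaction was −1.05 (SE 0.137, adjusted p = 1.04e-04). Its partner chain Slc3a2 (−0.76) and the cationic amino acid carrier Slc7a1 (−0.58) also had lower interactions (adjusted p = 0.00492 and 0.00539). Of the 16 genes of serine and one-carbon metabolism 3 were called lower and none higher (18.8%, against 5.54% of all genes tested called lower, median −0.26). Shmt2, the mitochondrial serine hydroxymethyltransferase, was at 478, 576, 499 and 482 CPM in KO untreated and 336, 295, 263 and 239 CPM in KO acetate libraries, against 227 to 271 and 199.6 to 269.8 CPM in the WT groups (interaction −0.75, SE 0.148, adjusted p = 0.00343). Phgdh, the first enzyme of serine synthesis and a member of both lists, had an interaction of −0.56 (SE 0.126, adjusted p = 0.00745). Fits that each left out 1 library gave 2 to 5 genes of the serine list called lower and 0 to 1 higher. The number lower was 5 without WT acetate 3. It was 2 without any of WT untreated 2 or 4, WT acetate 1 or 4, KO untreated 3, or KO acetate 1, 2 or 3. DESeq2 called 5 lower and 1 higher, and limma-voom 3 lower and 1 higher.

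Some ATF4 targets with larger estimates did not pass edgeR's test. Trib3, a pseudokinase gene induced by ATF4, was at 69.6, 95.3, 74.4 and 43.2 CPM in KO untreated, 27.5, 14.8, 12.7 and 11.8 CPM in KO acetate, 9.73, 9.06, 9.37 and 9.33 CPM in WT untreated and 15.6, 9.20, 2.27 and 5.62 CPM in WT acetate libraries. Every KO untreated library lay above all others, the WT untreated libraries lay close together, and WT acetate 3 was the lowest of all. The estimate was −1.88 (95% confidence interval −3.27 to −0.50, adjusted p = 0.0757), and it passed without WT acetate 3 (−2.20, adjusted p = 0.0204), without KO acetate 1 (−2.24, adjusted p = 0.0459) and, with all libraries, in DESeq2 (−1.89, adjusted p = 0.021). Asns, asparagine synthetase, was at −1.16 (−2.34 to 0.02, adjusted p = 0.195), with WT acetate libraries at 93.9, 65.8, 22 and 37.1 CPM. Both genes were chosen after their values were seen.

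Among interferon-stimulated genes and genes of antigen presentation, lower interactions outnumbered higher ones. Of 27 interferon-stimulated genes tested 9 were called lower and 1 higher (37% called, against 11.9% of all genes tested). The interaction was below 0 for 24 of them, with a median of −0.61 and median acetate effects of −0.76 in KO and −0.14 in WT cells. Irf1, a transcription factor induced by interferon, was at 36.0, 30.0, 34.6 and 33.4 CPM in WT untreated and 26.8, 30.0, 34.2 and 30.5 CPM in WT acetate libraries. It was at 45.2, 41.7, 47.6 and 42.4 CPM in KO untreated and 24.4, 27.1, 27.6 and 25.7 CPM in KO acetate libraries. All 4 KO untreated libraries lay above every other library, and the WT groups overlapped. The acetate effect was −0.76 in KO and −0.14 in WT cells (interaction −0.61, SE 0.110, adjusted p = 0.00165). Anti-IFNγ was present in the medium of all 4 groups. The member called higher, Ifit2 (0.41, adjusted p = 0.0283), was named after its values were seen and lost its call in 8 of the 16 fits that each left out 1 library. With library totals as the only scaling, and also without the 4 high-share libraries, 6 genes of the list were called lower.

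The 2 largest fold differences named from the interferon list were in genes of low abundance. Isg15, a ubiquitin-like protein gene, was at 0.378, 0.606, 0.411 and 0.439 CPM in WT untreated, 1.20, 0.548, 0.531 and 0.673 CPM in WT acetate libraries, 3.85, 3.53, 5.00 and 2.50 CPM in KO untreated and 1.08, 1.61, 1.42 and 0.816 CPM in KO acetate libraries. Every KO untreated library lay above all 12 other libraries (interaction −2.27, SE 0.433, adjusted p = 0.0026). Ifit1, which binds foreign RNA, was at 3.23, 3.30, 3.96 and 1.80 CPM in KO untreated and 1.62, 1.01, 0.815 and 1.07 CPM in KO acetate libraries, and below 1 CPM in all WT libraries (interaction −2.24, SE 0.477, adjusted p = 0.00536). Without the 4 high-share libraries the value for Ifit1 was −2.01 with an adjusted p of 0.0616. Both promoters are printed from RefSeq (GRCm38.p6) because they hold the core of the interferon-stimulated response element, a pair of GAAA words with any 2 bases between them, in capitals on either strand.
Isg15, chr4:156200830-156200929, minus strand: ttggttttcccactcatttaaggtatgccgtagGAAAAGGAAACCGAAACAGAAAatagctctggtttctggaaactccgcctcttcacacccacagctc
Ifit1, chr19:34640759-34640858, plus strand: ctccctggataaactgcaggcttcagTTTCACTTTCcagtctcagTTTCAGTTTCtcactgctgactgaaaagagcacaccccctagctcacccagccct
The motif was present in 3.46% of all promoters and 3.31% of those of tested genes, in 4 of 7 interferon-stimulated genes with a lower interaction and in 8 of 12 that were not called.

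In the MHC and antigen processing list 6 of 20 genes were called lower and 1 higher (35% called, against 11.9% of all genes tested, median −0.33). Cd74, the invariant chain of MHC class II, was at 199, 223, 182 and 202 CPM in KO untreated and 43.7, 70.6, 49.8 and 51.3 CPM in KO acetate libraries, against 56.9 to 68.7 CPM in WT untreated and 51.2 to 63.7 CPM in WT acetate libraries. KO untreated libraries stood apart, and the KO acetate and both WT groups overlapped (interaction −1.79, SE 0.169, adjusted p = 1.46e-05). Class I genes had smaller values, with −0.63 for H2-Q4, −0.47 for H2-D1 and −0.44 for H2-K1 (adjusted p = 8.48e-04, 8.93e-04 and 0.00253). H2-K1 rose with acetate in WT cells, with 596 to 604 CPM untreated and 673 to 716 CPM with acetate, and fell in KO cells, with 667 to 785 and 585 to 641 CPM. These class I genes have near-identical relatives, so the division of reads among them is uncertain. Of 2 neighbouring immunoproteasome subunit genes, Psmb9 had a lower interaction (−0.65, adjusted p = 9.73e-04) and Psmb8, named after its values were seen, a higher one (0.41, adjusted p = 0.00356). The summed B cell markers were at 1.14 to 3.01 CPM in WT untreated, 1.79 to 4.28 in WT acetate, 1.65 to 4.99 in KO untreated and 1.845 to 5.64 in KO acetate libraries. The dendritic cell markers were at 1.10 to 1.58, 1.36 to 4.56, 1.84 to 5.80 and 1.63 to 4.45 CPM in the same order, and their part in these results was not tested.

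Genes of the Th17 programme had higher interactions for 4 of 26 tested, and none lower, with a median of 0.18. That is 15.4% of the list, against 6.37% of all genes tested called higher and 11.9% called in either direction. Without KO untreated 2 the calls were 5 higher and 2 lower, without any of WT untreated 3, WT acetate 1, 2 or 3, or KO acetate 1 or 4 they were 4 higher and 1 lower, without KO untreated 4 they were 5 and 1, and DESeq2 gave 4 and 3. Il23r, the receptor chain through which IL-23 sustains Th17 cells, was at 22.9, 27.3, 29.0 and 30.0 CPM in WT untreated and 29.4, 31.1, 26.9 and 27.9 CPM in WT acetate libraries. It was at 6.22, 6.61, 6.94 and 11.5 CPM in KO untreated and 23.5, 23.6, 23.8 and 26.7 CPM in KO acetate libraries. Only the KO untreated libraries stood apart, all 4 below every other library, and the WT groups overlapped. Acetate raised Il23r by 1.64 in KO cells, with 0.08 in WT cells (interaction 1.56, SE 0.200, adjusted p = 1.15e-04). Stat3, which relays the IL-6 and IL-23 signals, had acetate effects of 0.68 in KO and 0.11 in WT cells (interaction 0.58, SE 0.129, adjusted p = 0.00749), and Lif, a cytokine gene of the IL-6 family, 1.24 and 0.38, both called (interaction 0.85, SE 0.175, adjusted p = 0.00474).

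The Th17 cytokine genes did not pass the test of the interaction. Il17a, the signature cytokine, was at 96.5, 199, 123 and 122 CPM in WT untreated and 639.5, 588, 312 and 401 CPM in WT acetate libraries. It was at 171, 122, 109 and 149 CPM in KO untreated and 1124, 777, 549 and 1023 CPM in KO acetate libraries. Acetate raised Il17a without overlap in both genotypes, by 1.84 in WT and 2.66 in KO cells, and the difference of 0.82 had a 95% confidence interval of −0.08 to 1.71 (adjusted p = 0.234). Il17f had an interaction of 0.50 (−0.18 to 1.18, adjusted p = 0.341), with both effects called. These intervals do not show that the responses were alike.

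Il22, a cytokine gene that acts on epithelium, was at 13.3, 21.99, 23.8 and 19.2 CPM in WT untreated, 14.98, 25.1, 29.1 and 28.1 CPM in WT acetate libraries, 2.53, 9.46, 5.04 and 6.91 CPM in KO untreated and 14.1, 14.4, 18.4 and 20.1 CPM in KO acetate libraries. Its interaction of 1.16 (adjusted p = 0.112) passed with the replicate number as a block (1.25, adjusted p = 0.0164). It also passed without KO untreated 2 (1.47, adjusted p = 0.04997) and without the 4 high-share libraries (1.39, adjusted p = 0.0462). Il21, a cytokine gene shared with follicular helper cells, was at −0.37 (adjusted p = 0.171), and without WT acetate 2 at −0.47 (adjusted p = 0.04983).

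Genes induced through the T cell receptor divided between the directions. Of 24 T cell activation genes 4 were called higher and 2 lower (25% called, against 11.9% of all genes tested, median 0.18). The number lower was 1 without any of WT untreated 4, WT acetate 4, KO untreated 3 or KO acetate 1, 2 or 3. Nr4a2 and Nr4a1 are nuclear receptors switched on by receptor signals. Nr4a2 was at 11.0, 12.8, 10.0 and 11.8 CPM in KO untreated and 52.99, 59.6, 42.3 and 42.7 CPM in KO acetate libraries, and at 26.9, 46.2, 34.7 and 38.0 and 62.6, 57.6, 28.3 and 39.8 CPM in WT untreated and WT acetate libraries. The KO groups did not overlap, and in WT cells acetate libraries 1 and 2 stood above the untreated range while 3 and 4 lay within it (interaction 1.74, SE 0.327, adjusted p = 0.00448). Nr4a1 had acetate effects of 1.25 in KO and 0.36 in WT cells (interaction 0.90, SE 0.163, adjusted p = 0.00207). Tnfrsf9, the costimulatory receptor 4-1BB, had effects of 1.40 and 0.49 (interaction 0.91, SE 0.152, adjusted p = 0.00112). In the regulatory T cell list 2 of 17 genes were called higher and none lower, and 1 was called higher without KO untreated 3. That is 11.8% of the list, against 6.37% of all genes tested called higher and 11.9% called in either direction. Its inhibitory receptor gene Ctla4 was at 194, 156, 143 and 155 CPM in KO untreated and 620.1, 577, 527 and 553 CPM in KO acetate libraries. In WT cells Ctla4 was at 276, 388, 352 and 404 CPM untreated and 587, 553, 341 and 398 CPM with acetate (interaction 1.41, SE 0.227, adjusted p = 0.00135).

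The 2 genes called lower in the activation list were Myc and Il2. Myc, the growth regulator, fell with acetate in KO cells, with 535 to 674 CPM untreated and 393 to 436 CPM with acetate, and was at 353 to 440.3 and 348 to 413 CPM in the WT groups (interaction −0.50, SE 0.118, adjusted p = 0.0105). Il2, the T cell growth factor gene, rose with acetate in both genotypes and farther in WT cells, from 224, 322, 338 and 246 to 579, 566, 601 and 647 CPM in WT and from 491, 644, 578 and 513 to 749, 735, 676 and 913 CPM in KO cells. The effects were 1.08 in WT and 0.47 in KO cells (interaction −0.62, SE 0.176, adjusted p = 0.0295), and 8 of the 16 fits that each left out 1 library lost the call, with values between −0.72 and −0.53. With library totals as the only scaling neither gene was called, at −0.44 for Myc (adjusted p = 0.0586) and −0.56 for Il2 (adjusted p = 0.0912).

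Among genes of other effector programmes, 3 of 11 cytotoxic effector genes tested were called higher and none lower (27.3%, against 6.37% of all genes tested called higher). Their median interaction was 0.54, with median acetate effects of 1.55 in KO and 0.70 in WT cells. Gzmb, the granule protease granzyme B, was at 45.8, 33.1, 28.9 and 28.6 CPM in KO untreated and 111, 111, 94.98 and 82.8 CPM in KO acetate libraries, and at 49.6, 75.3, 62.1 and 72.2 and 86.8, 112, 87.8 and 105 CPM in WT libraries without and with acetate. Acetate raised Gzmb in both genotypes without overlap (interaction 0.96, SE 0.229, adjusted p = 0.0149). Fasl, the death ligand gene, had effects of 1.56 in KO and 0.70 in WT cells (interaction 0.87, SE 0.188, adjusted p = 0.00593), and Serpinb9, an inhibitor of granzyme B, an interaction of 0.77 (SE 0.197, adjusted p = 0.0194). Without the 4 high-share libraries Serpinb9 was at 0.74 (adjusted p = 0.11). Of 6 markers of CD8 T and NK cells 3 were tested (Cd8a, Cd8b1 and Prf1), and their sum was 10.9 to 13.9 CPM in WT untreated, 19.3 to 25.9 in WT acetate, 7.42 to 9.75 in KO untreated and 18.9 to 26.8 in KO acetate libraries. Their part in these results was not tested.

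In the Th1 list 3 of 16 genes were called higher and 2 lower (31.2% called, against 11.9% of all genes tested). The median interaction was −0.16, and 9 of the 16 were below 0. Stat4, the transducer of the IL-12 signal, was at 31.2, 54.6, 42.0 and 40.6 CPM in KO untreated and 171, 186, 154 and 133 CPM in KO acetate libraries, against 75.3, 123, 113 and 121 and 186, 188, 110.0 and 145 CPM in WT libraries without and with acetate (interaction 1.39, SE 0.297, adjusted p = 0.0092). Il18rap, a chain of the IL-18 receptor, went the other way (interaction −0.91, SE 0.180, adjusted p = 0.00326), with 27.2 to 35.8 CPM in KO untreated, 11.4 to 15.6 CPM in KO acetate, and 10.3 to 14.4 and 8.11 to 11.1 CPM in the WT groups. Cxcr5, which guides follicular helper cells to B cell follicles, rose with acetate in both genotypes, by 1.56 in WT and 2.61 in KO cells (interaction 1.05, SE 0.260, adjusted p = 0.0151). In the follicular helper list 2 of 13 genes were called higher and none lower (15.4% called, against 11.9% of all genes tested). Most of the list went the other way, with 9 of 13 interactions below 0 and a median of −0.245. The number called higher was 1 without any of WT untreated 2 or 3, WT acetate 3, or KO untreated 1, 2 or 3.

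Of the 4 core subunit genes of the PDH complex none was called. Of the complex and its regulators 1 of 13 was called higher and 1 lower (15.4% called, against 11.9% of all genes tested). The interaction was 0.07 (−0.10 to 0.25) for Pdha1, the E1 alpha subunit, −0.09 (−0.24 to 0.06) for Pdhb, the E1 beta subunit, 0.14 (−0.06 to 0.33) for Dlat (E2) and 0.06 (−0.14 to 0.26) for Dld (E3), each with its 95% confidence interval and none called (adjusted p = 0.622, 0.462, 0.375 and 0.739). Pdha1 was at 234 to 263 CPM in WT untreated, 250.4 to 273 in WT acetate, 209.6 to 236 in KO untreated and 232 to 262 in KO acetate libraries, groups that overlap within each genotype. Because counts are summed over whole genes, a deletion of single exons may leave them unchanged, and the genotype labels are not tested by them. Pdhx, the E3-binding protein gene, was called higher (0.34, adjusted p = 0.0443) and lost the call in 14 of the 16 fits that each left out 1 library. Mpc1, a subunit of the mitochondrial pyruvate carrier, was called lower (−0.35, adjusted p = 0.0362) and lost the call in 11 of them. Of 16 genes of acetate use and acetyl-CoA supply 1 was called lower and none higher (6.25% called). That call was lost in 9 of the 16 fits that each left out 1 library. Acss1, the mitochondrial acetyl-CoA synthetase, was at 2.25, 4.11, 4.89 and 3.71 CPM in KO untreated and 9.16, 9.64, 8.72 and 6.85 CPM in KO acetate libraries, and at 6.43, 6.73, 5.64 and 6.25 and 9.62, 9.43, 6.78 and 9.03 CPM in WT libraries without and with acetate. Its interaction of 0.72 did not pass (adjusted p = 0.0686), but did without KO untreated 3 (0.86, adjusted p = 0.0362), without KO acetate 4 (0.81, adjusted p = 0.0408) and in DESeq2 (0.72, adjusted p = 0.0305). The cytosolic and nuclear enzyme Acss2 was at −0.19 (−0.96 to 0.59, adjusted p = 0.79), and Acly, which makes acetyl-CoA from citrate, at 0.18 (−0.10 to 0.45, adjusted p = 0.415).

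In the TCA cycle and glutamine list 3 of 26 genes were called higher and 2 lower (19.2% called, against 11.9% of all genes tested). Pcx, pyruvate carboxylase, which feeds the cycle with oxaloacetate, fell with acetate in both genotypes, from 24.4, 22.7, 24.4 and 23.7 to 10.1, 11.6, 8.90 and 8.09 CPM in KO and from 17.9, 14.8, 14.9 and 14.2 to 12.9, 10.5, 9.47 and 8.60 CPM in WT cells (interaction −0.73, SE 0.171, adjusted p = 0.0096). Idh3a, a subunit of the NAD-dependent isocitrate dehydrogenase, and Got2, the mitochondrial aspartate aminotransferase, had interactions of 0.31 and 0.37 (adjusted p = 0.0154 and 0.0208). Without the 4 high-share libraries none of the TCA list was called higher and 1 was called lower in edgeR, with 7 of the 26 at an unadjusted p under 0.05. With all libraries DESeq2 called 5 higher and 2 lower. The number lower was 1 without any of WT untreated 1, 3 or 4, WT acetate 2 or 4, KO untreated 2 or 4, or KO acetate 1 or 3. Of the 13 genes encoded by mitochondrial DNA 2 were called lower and none higher (15.4%, against 5.54% of all genes tested called lower). Of the 13 interactions 12 were below 0, and the median was −0.52. The number called was 6 without KO untreated 2, 4 without KO acetate 4, and 1 without any of WT untreated 2, 3 or 4, WT acetate 3 or 4, KO untreated 1 or 4, or KO acetate 1, 2 or 3. mt-Co1, a subunit of cytochrome c oxidase, had effects of −0.34 in KO and 0.17 in WT cells (interaction −0.52, SE 0.112, adjusted p = 0.00598), and without the 4 high-share libraries the value was −0.46 with an adjusted p of 0.0583. Mitochondrially encoded genes held 4.01% to 5.49% of the counts of KO untreated libraries, 3.42% to 4.35% of KO acetate, 3.65% to 3.87% of WT untreated and 3.78% to 4.55% of WT acetate libraries. These genes have nuclear copies, so their counts are uncertain.

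Lipid genes were called in both directions or not at all. Elovl6, which lengthens fatty acids, was at 37.4, 27.5, 33.0 and 33.1 CPM in KO untreated and 61.9, 65.9, 67.2 and 56.5 CPM in KO acetate libraries, against 68.7 to 79.2 and 60.1 to 69.1 CPM in the WT groups (interaction 1.10, SE 0.117, adjusted p = 1.53e-05). Fasn, fatty acid synthase, fell with acetate in both genotypes, by 1.00 (log2) in KO and 0.49 in WT cells (interaction −0.51, SE 0.137, adjusted p = 0.0223). The call for Fasn was lost without WT untreated 4 (−0.44, adjusted p = 0.0507) and without WT acetate 4 (−0.46, adjusted p = 0.0523), with library totals only (−0.44, adjusted p = 0.0547) and without the 4 high-share libraries (−0.56, adjusted p = 0.0599). In the fatty acid synthesis list 2 of 14 genes were higher and 1 lower (21.4% called, against 11.9% of all genes tested). None of the 25 cholesterol synthesis genes was called by edgeR, with 4 at an unadjusted p under 0.05. DESeq2 called 1 higher and 1 lower, limma-voom none, and edgeR with library totals only, or without the 4 high-share libraries, 1 higher. The median interaction of the cholesterol list was 0.02, with median acetate effects of −0.29 in KO and −0.28 in WT cells, and 15 of its genes were lower with acetate in KO and 11 in WT cells, against the 21.6% and 7.55% of all genes tested given above.

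In the list of the endoplasmic reticulum unfolded protein response 3 of 18 genes were higher and 1 lower (22.2% called, against 11.9% of all genes tested). Herpud1, a gene of the degradation of endoplasmic reticulum proteins, was at 105, 111, 102 and 92.8 CPM in KO untreated and 66.5, 67.3, 56.9 and 60.1 CPM in KO acetate libraries (interaction −0.77, SE 0.125, adjusted p = 6.92e-04), while Pdia6, a protein disulfide isomerase gene, was at 181, 154, 172 and 180.3 and 254, 228, 267 and 249 CPM (interaction 0.46, SE 0.0875, adjusted p = 0.00248). The KO groups did not overlap for either gene. WT libraries were at 48.9 to 57.2 and 48.8 to 63.0 CPM for Herpud1 and at 238 to 260.2 and 256 to 273 CPM for Pdia6, without and with acetate. In the cell cycle list 1 of 28 genes was called higher and none lower (3.57% called, median −0.006), with the call lost in 6 of the 16 fits that each left out 1 library. In the Th2 and Il9 list none of 12 was called by edgeR, with 2 at an unadjusted p under 0.05. For the latter DESeq2 called 1 higher and limma-voom none.

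Opposite acetate effects, with both called, were found for 17 genes with a higher and 13 with a lower interaction. Besides Ak4, they included Arrb1, a beta-arrestin gene, which rose in KO cells from 17.5, 20.3, 16.7 and 14.5 to 32.0, 36.7, 30.4 and 31.7 CPM and fell in WT cells from 39.9, 48.5, 43.6 and 48.4 to 36.0, 37.7, 32.6 and 38.5 CPM (interaction 1.24, SE 0.133, adjusted p = 1.70e-05). Cd2, an adhesion receptor of T cells, rose by 0.54 in KO and fell by 0.27 in WT cells (interaction 0.80, SE 0.101, adjusted p = 7.17e-05), and Gpr171, a G protein-coupled receptor gene of T cells, rose by 0.29 and fell by 0.29 (interaction 0.59, SE 0.0824, adjusted p = 2.15e-04). In all 3 genes the KO untreated libraries lay below every other library. Cd83, an activation receptor gene, went the other way. It fell in KO cells from 36.4, 36.1, 37.8 and 38.7 to 23.8, 26.8, 30.6 and 31.4 CPM and rose in WT cells from 11.5, 12.3, 12.3 and 10.3 to 20.9, 21.8, 16.5 and 22.02 CPM, with no overlap in either genotype (interaction −1.21, SE 0.139, adjusted p = 2.87e-05). Wnt10b, a secreted signal, had effects of −0.54 in KO and 0.99 in WT cells (interaction −1.53, SE 0.250, adjusted p = 7.58e-04), and Id3, an inhibitor of E protein transcription factors, −0.47 and 0.37 (interaction −0.84, SE 0.141, adjusted p = 0.00103). Cd70, a costimulatory ligand gene, had the larger effect in WT cells, where it rose from 2.03, 2.88, 3.91 and 1.86 to 6.21, 8.97, 6.31 and 7.65 CPM. In KO cells it was at 7.62, 20.8, 14.2 and 14.2 CPM untreated and 9.94, 10.4, 10.0 and 9.58 CPM with acetate, groups that overlap (interaction −1.95, SE 0.362, adjusted p = 0.00308).

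**Figure D5:**
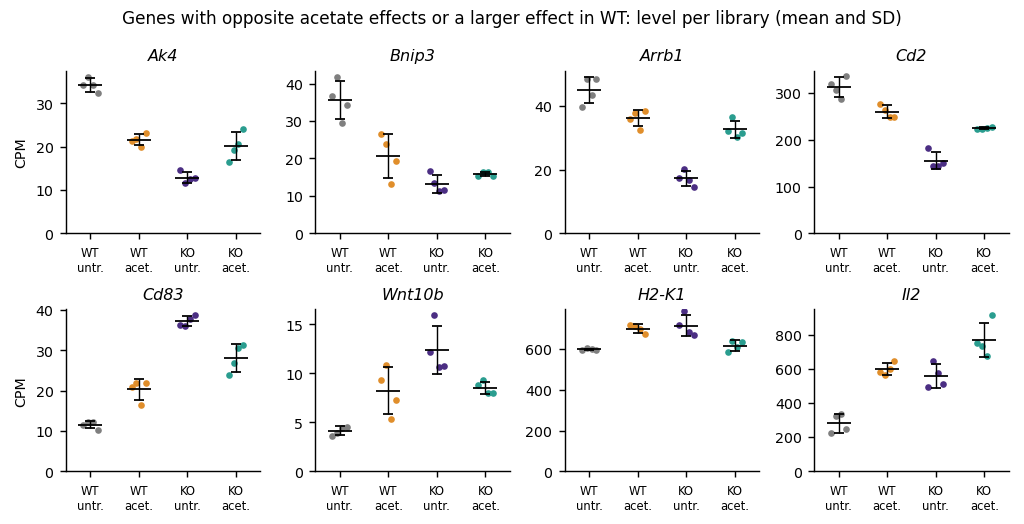
Level (CPM, vertical axis) of 8 genes in each library, by group (horizontal axis), with the mean and SD of 4 libraries. Ak4, Arrb1 and Cd2 fell with acetate in WT and rose in KO cells, Cd83, Wnt10b and H2-K1 the reverse, Bnip3 fell in WT cells, and Il2 rose in both genotypes.

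The largest interactions among genes that reached a mean of 5 CPM in some group were in genes of varied function. Fscn1, which bundles actin, was at 8.94, 14.99, 8.81 and 8.71 CPM in KO untreated and 1.718, 1.79, 1.17 and 1.17 CPM in KO acetate libraries, and at 0.791, 0.788, 0.823 and 0.744 and 1.63, 1.01, 0.885 and 0.911 CPM in WT libraries without and with acetate. Its KO untreated libraries stood at 8.71 CPM or above, with every other library below 2 CPM (interaction −3.31, SE 0.339, adjusted p = 1.46e-05). Kynu, kynureninase of tryptophan breakdown, fell with acetate in both genotypes, from 12.9, 9.65, 10.8 and 8.27 to 0.404, 0.299, 0.886 and 0.248 CPM in KO and from 3.06, 1.67, 1.44 and 1.15 to 0.715, 0.260, 0.678 and 0.832 CPM in WT cells (interaction −2.92, SE 0.545, adjusted p = 0.00262). Cyp1a1, a target gene of the aryl hydrocarbon receptor, was at 27.4, 22.8, 29.6 and 28.1 CPM in KO untreated and 3.503, 2.92, 4.25 and 6.14 CPM in KO acetate libraries, and at 9.11, 5.36, 6.94 and 6.32 and 3.02, 4.01, 14.4 and 7.33 CPM in the WT groups (interaction −2.74, SE 0.564, adjusted p = 0.00785). Its call was lost without the 4 high-share libraries (−2.85, adjusted p = 0.058). Dagla, an endocannabinoid-synthesising lipase gene, had an interaction of −2.59 (SE 0.529, adjusted p = 0.00423) and Tspoap1 one of −2.39 (SE 0.587, adjusted p = 0.0202), which was not called by limma-voom (−2.24, adjusted p = 0.0915).

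On the higher side, Dusp3, a phosphatase gene, rose with acetate in both genotypes, from 2.22, 1.88, 1.58 and 3.05 to 20.5, 21.9, 16.5 and 16.7 CPM in KO and from 5.71, 7.76, 9.08 and 9.70 to 18.4, 18.6, 12.5 and 15.8 CPM in WT cells (interaction 2.10, SE 0.269, adjusted p = 1.16e-04). Fut4, a fucosyltransferase gene, was at 0.816, 1.39, 1.69 and 1.36 CPM in KO untreated and 8.12, 9.31, 7.91 and 7.17 CPM in KO acetate libraries (interaction 2.02, SE 0.321, adjusted p = 6.08e-04), and Slc17a6, a glutamate transporter gene, at 1.55, 1.46, 1.44 and 1.32 and 6.94, 6.06, 5.28 and 3.27 CPM (interaction 2.14, SE 0.430, adjusted p = 0.0041). The KO groups of both genes did not overlap. Rgs11, a regulator of G protein signalling, had an interaction of 1.80 (SE 0.341, adjusted p = 0.00254) and Ccn1, a matrix-associated growth regulator, one of 2.75 (SE 0.658, adjusted p = 0.0165). Crem, a cAMP-responsive transcription factor gene, had an interaction of 1.91 (SE 0.483, adjusted p = 0.0237), which was 1.81 without KO untreated 3 (adjusted p = 0.0524) and 2.17 without the 4 high-share libraries (adjusted p = 0.0721). Of these 24 genes with the largest interactions, 12 in each direction, 5 lay close to the threshold and lost the call in 11 to 13 of the 16 fits that each left out 1 library: Ramp3 (3.22), Tg (1.97), Ccn4 (1.93), Aqp4 (−2.95) and Cxcl10 (−2.17), with adjusted p-values of 0.0489, 0.0469, 0.0467, 0.0469 and 0.0434.

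Abundance moved with the share of genes called. Of genes with a mean under 1 CPM 2.54% were called, of those at 1 to 5 CPM 8.53%, and of those at 5 to 20, 20 to 100 and over 100 CPM 15.6%, 15% and 15.8%.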

How the data were processed

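Poly(A)-selected RNA of cultured Th17 cells was sequenced in 16 libraries, 4 for each of 4 groups, from TruSeq Stranded mRNA libraries and NucleoSpin RNA, per the labels' protocols. The authors deposited a table of estimated counts per gene, held as whole numbers, for 15571 genes. Salmon, DESeq2 and DESeq are named without version or order, per the submitters' processing notes, and no source used here names the genome build or annotation. Every gene in the table reaches 10 counts in at least 3 libraries. Gene names were matched for 15221 identifiers, 350 stayed unnamed, and 15 names are shared by several identifiers. Library totals of 24.57 to 33.72 M bound the counting error, and the common biological coefficient of variation was 0.144.

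The estimated counts were analysed in R 4.3.3 with edgeR 4.0.16 (TMM scaling, filterByExpr, robust quasi-likelihood F test, 1 mean per group over all 16 libraries). That left 14985 genes, over which p-values were adjusted by Benjamini-Hochberg. The interaction is the acetate effect in KO minus that in WT cells. CPM values use the TMM-scaled totals. The procedure was tested on simulated data. Alternatives were RLE scaling, library totals only, DESeq2 1.42.0, limma-voom (limma 3.58.1), no filter, the replicate number as a block, each library left out in turn and, chosen after seeing the data, the 4 high-share libraries left out or their unnamed gene removed.

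The comparison and the 41 gene lists were chosen with earlier results of these data known. Named genes follow a rule: the PDH and acetyl-CoA genes Pdha1, Pdhb, Dlat, Pdhx, Dld, Acss1, Acss2 and Acly, 6 Th17 genes, the 12 largest interactions in each direction that reach a mean of 5 CPM in the highest group, the called members of each list, up to 4 by adjusted p, and the 4 genes in each direction with the smallest adjusted p among those with opposite called effects. Predicted and unnamed genes, immune receptor segments, Xist and Y-linked genes were left out of it, and genes named outside it are said to be chosen after their values were seen. Not every gene the rule picks is reported here. Within groups no 2 libraries had counts as close as sampling noise. Replicate numbers come from the sample titles and from the column names of the deposited counts, which put the number directly after the genotype. Neither says that the numbers mark a shared animal or day. Deviations from the group means of same-numbered libraries correlated over genes by −0.132 to 0.338 in 24 pairs, of which 10 were over 0.1. Differently numbered libraries correlated by −0.332 to 0.285 in 72 pairs, of which 12 were over 0.1. Untreated and acetate libraries of the same number, 1 to 4, correlated by 0.097, 0.228, 0.23 and 0.237 within KO cells. Within WT cells the values were −0.073, 0.202, 0.034 and 0.041. Because no label states a pairing, the main fit did not pair the libraries, and the fit with the replicate number as a block is an alternative. That block joins equal numbers across both genotypes, so it does not represent an animal shared only within a genotype, and no fit paired libraries in that way.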

Additional observations from a re-analysis of the deposited data

Results flagged for a closer look

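The acetate response differed between the 2 genotypes for 1785 genes by the test of the difference itself, with the values given above.

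All named genes, with those chosen after their values were seen, gave 504 groups of 4 libraries. In 30 of these groups 1 library lay far from the other 3, and chance alone gives about 1 in 20. Among genes of the Th17 programme, KO untreated 4 had 11.51 CPM of Il23r (others 6.22 to 6.94) and KO acetate 4 had 26.69 CPM (others 23.5 to 23.8). Library WT untreated 4 had 300.6 CPM of Il21 (others 271 to 272.5), while WT untreated 1 had 242.3 CPM of Lif (others 408 to 438). In metabolic genes, KO acetate 4 had 197.8 CPM of Hk1 (others 232 to 237) and KO acetate 3 had 62.9 CPM of Pfkfb3 (others 56.8 to 57.1). For Got2 the far libraries were WT untreated 4 with 277.7 CPM (others 314 to 317) and KO untreated 4 with 264.1 CPM (others 219 to 226). Of the amino acid genes, Slc7a1 stood at 197 CPM in WT untreated 4 (others 219.5 to 222) and Asns at 39.99 CPM in WT untreated 1 (others 47.5 to 48.8).

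Of the interferon and MHC genes, Ifit1 stood at 0.7097 CPM in WT untreated 4 (others 0.294 to 0.364), and H2-Q4 at 59.24 CPM in WT untreated 1 (others 45.8 to 46.6) and 51.19 CPM in WT acetate 3 (others 46.0 to 46.7). Activation genes had KO untreated 2 at 70.5 CPM for Tnfrsf9 (others 64.3 to 64.5), KO acetate 3 at 436.3 CPM for Myc (others 393 to 395) and KO untreated 1 at 181.8 CPM for Cd2 (others 144 to 150.2). Fscn1 was at 1.625 CPM in WT acetate 1 (others 0.885 to 1.01) and 14.99 CPM in KO untreated 2 (others 8.71 to 8.94), Rgs11 at 2.137 CPM in KO untreated 1 (others 1.52 to 1.58), and Prdx1 at 337.9 CPM in KO acetate 4 (others 250.2 to 261).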

How the results depend on the processing

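The number of interaction calls was 1783 with RLE scaling, 2377 with DESeq2, 1788 with limma-voom, 1756 with no filter and 1805 with the unnamed gene removed. With library totals as the only scaling, the lower calls numbered 442 for the interaction, 2085 for acetate in KO and 558 for acetate in WT cells, and the median acetate effect in KO cells moved from −0.009 to 0.095. All 1785 genes kept the sign of their interaction in that fit. Without the 4 high-share libraries the interaction had 1010 calls, 546 higher and 464 lower. Leaving out 1 library gave 1277 (without KO acetate 3) to 1999 (without KO acetate 4) interaction calls, 680 to 1084 of them higher and 577 to 915 lower. The same fits gave 5817 to 6652 acetate calls in KO and 1569 to 2370 in WT cells, with 734 to 1168 lower in WT. The next counts leave out genes chosen after their values were seen. Of 108 genes picked by the naming rule and called, 63 were called under all 24 alternatives and none changed sign. Without at least 1 library 29 lost the call, without the high-share libraries 37, and with library totals 25. Among genes not called, the sign turned for Dld (−0.006 without KO acetate 1, highest 0.094 without KO acetate 4) and Acss2 (0.01 without the high-share libraries, 0.007 without WT acetate 2, lowest −0.347 without WT acetate 3). The cause was not tested.

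With the replicate number as a block (replicate block), 2259 genes were called in the interaction, 1222 higher and 1037 lower. Il22, not called without the block, was called with it (1.25, adjusted p = 0.0164). In the check of pairing, same-numbered libraries had a median correlation of 0.097 and others −0.032. A library correlated best with its own number in 21 of 48 cases, each with 4 libraries to choose from. Whether the numbers mark a shared animal or day was not tested.

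Of genes with a mean under 1 CPM 2.54% were called, and whether depth or fewer differences accounts for that share was not tested. Bulk counts give no level per cell.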

Other observations

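Other lists had members called in the interaction, at 23.5% of the NRF2 and glutathione genes, 20% of the aminoacyl-tRNA synthetases, 13.3% of the naive and memory genes, 10.7% of the histone acetylation genes and 5.88% of the TGFβ and SMAD genes, against 11.9% of all genes tested. The last 3 shares are near or below that of all genes and are no result about those lists. Of 17 genes of the NRF2 and glutathione response, 2 were higher and 2 lower, and fits that each left out 1 library gave 1 to 3 higher and 1 to 2 lower, with 1 higher in 12 of the 16. Srxn1, which repairs oxidised peroxiredoxins, was at 9.68, 7.93, 6.73 and 9.01 CPM in KO untreated and 12.9, 11.0, 11.2 and 16.8 CPM in KO acetate libraries (interaction 0.87, SE 0.187, adjusted p = 0.00561). Prdx1, a peroxiredoxin gene, went the other way, at 526, 475, 516 and 502 CPM in KO untreated and 250.2, 261, 261 and 338 CPM in KO acetate libraries (interaction −0.69, SE 0.120, adjusted p = 0.00133). In neither gene did the KO groups overlap. Of 20 aminoacyl-tRNA synthetases 2 were higher and 2 lower. Leaving out 1 library gave 2 to 3 higher and 1 to 4 lower, with 4 lower without WT acetate 3 or KO acetate 1, and 1 lower without WT untreated 3 or 4, WT acetate 1 or 2, or KO acetate 3. Qars, the glutaminyl-tRNA synthetase gene, had acetate effects of 0.43 in KO and 0.07 in WT cells (interaction 0.36, SE 0.0716, adjusted p = 0.00386).

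Of 28 genes of histone acetylation and its readers 1 was higher and 2 were lower. Brd2, a bromodomain protein that binds acetylated histones, was at 488, 435, 505 and 529 CPM in KO untreated and 289, 277, 326 and 335 CPM in KO acetate libraries, against 311 to 334 and 272 to 325 CPM in WT libraries without and with acetate (interaction −0.55, SE 0.111, adjusted p = 0.00391). Satb1, a chromatin organiser of T cells from a list of 15 naive and memory genes with 1 higher and 1 lower, had effects of 0.43 in KO and −0.16 in WT cells (interaction 0.59, SE 0.106, adjusted p = 0.00188). Inhba, which encodes a subunit of activin A, was the member called in the list of 17 TGFβ and SMAD genes (interaction 0.99, SE 0.216, adjusted p = 0.00873), with effects of 1.15 and 0.17.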
